A study of Homo sapiens with 4 samples.

Results

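The RAB genes encode the largest family of small GTPases of the RAS superfamily, and they were taken here as every gene whose symbol is RAB followed by a number and at most a letter and a digit. The tables listed 61 such genes among 16878 identifiers, and 52 of them had a mean of at least 1 FPKM (fragments per kilobase of transcript scaled to library size) over the 4 libraries and were tested. The RNA-seq libraries were made from PANC-1, an established human pancreatic ductal carcinoma cell line. The Control group and the siSIRT1 group held 2 libraries each, from cells transfected for 48 h with controls or with a small interfering RNA against SIRT1, the NAD-dependent deacetylase. All 4 libraries came from the same line, 1 siRNA sequence is named for the knockdown, and the control reagent is not described further. The sequence listed by the study is shown because the comparison below was made with 1 knockdown reagent as far as the sources state.
siSIRT1: gugucaugguuccuuugca

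A RAB protein is active when bound to GTP, and in that state it sits on the membrane of a particular organelle and recruits effectors that bud, move, tether or fuse vesicles. Exchange factors load GTP, GTPase-activating proteins end the active state, and GDP dissociation inhibitors take the prenylated inactive protein off the membrane. Different members mark the endoplasmic reticulum and Golgi, early endosomes, recycling endosomes, late endosomes and lysosomes, and secretory vesicles. In pancreatic duct and acinar cells these routes serve polarized secretion and the turnover of surface receptors.

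SIRT1 itself was 10.5 and 10.3 FPKM in the Control libraries and 1.80 and 2.05 FPKM in the siSIRT1 libraries. The siSIRT1 mean was 18.6% of the Control mean. On log2(FPKM + 1), the scale of the log2 fold changes below, the change was -1.96 (SE 0.11, limma adjusted p = 1.33e-05). Depth estimated from the smallest steps between FPKM values was 8700000 to 9160000 reads per library. All 7 ductal epithelial markers reached 1 FPKM, with sums of 4246 and 4022 FPKM in Control, against 5123 and 4725 FPKM after siSIRT1. None of the acinar, endocrine or endothelial markers in the tables reached 1 FPKM, and 3 of 4 hematopoietic markers did, with a summed level of 19.8 to 25.0 FPKM. The fibroblast list summed to 4.21 and 2.95 FPKM in Control, against 8.77 and 8.19 FPKM after siSIRT1, nearly all of it THY1, while DCN and LUM were at most 0.10 FPKM. The part of these markers in the RAB values was not tested.

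Of the 52 RAB genes tested, 18 passed an adjusted p of 0.05 (limma on log2(FPKM + 1), Benjamini-Hochberg over 12191 genes). That is 34.6% of the members tested, beside 37.1% of all genes tested. Of the 18, 12 were higher and 6 were lower in siSIRT1, while 24% of all genes were called higher and 13.1% lower. The groups did not overlap in 38 of 52 members, beside 69% of all genes. The share of RAB genes called was therefore close to the background, and the account below concerns which members moved. The median log2 fold change was 0.06 over the members and 0.07 over all genes tested. The split by direction depended on the scaling. With median-of-ratios scaling, 8 members were higher and 10 lower, beside 16.6% and 16.8% of all genes, and the median over all genes moved from 0.07 to -0.002. Without Control library 1 the higher calls numbered 6, and without Control library 2 they numbered 7. On the log2(FPKM + 1) scale, RAB32, RAB26 and RAB33A passed 1.5-fold, which is 3 of 52 members (5.77%), beside 1338 of the 12191 genes.

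**Figure D1:**
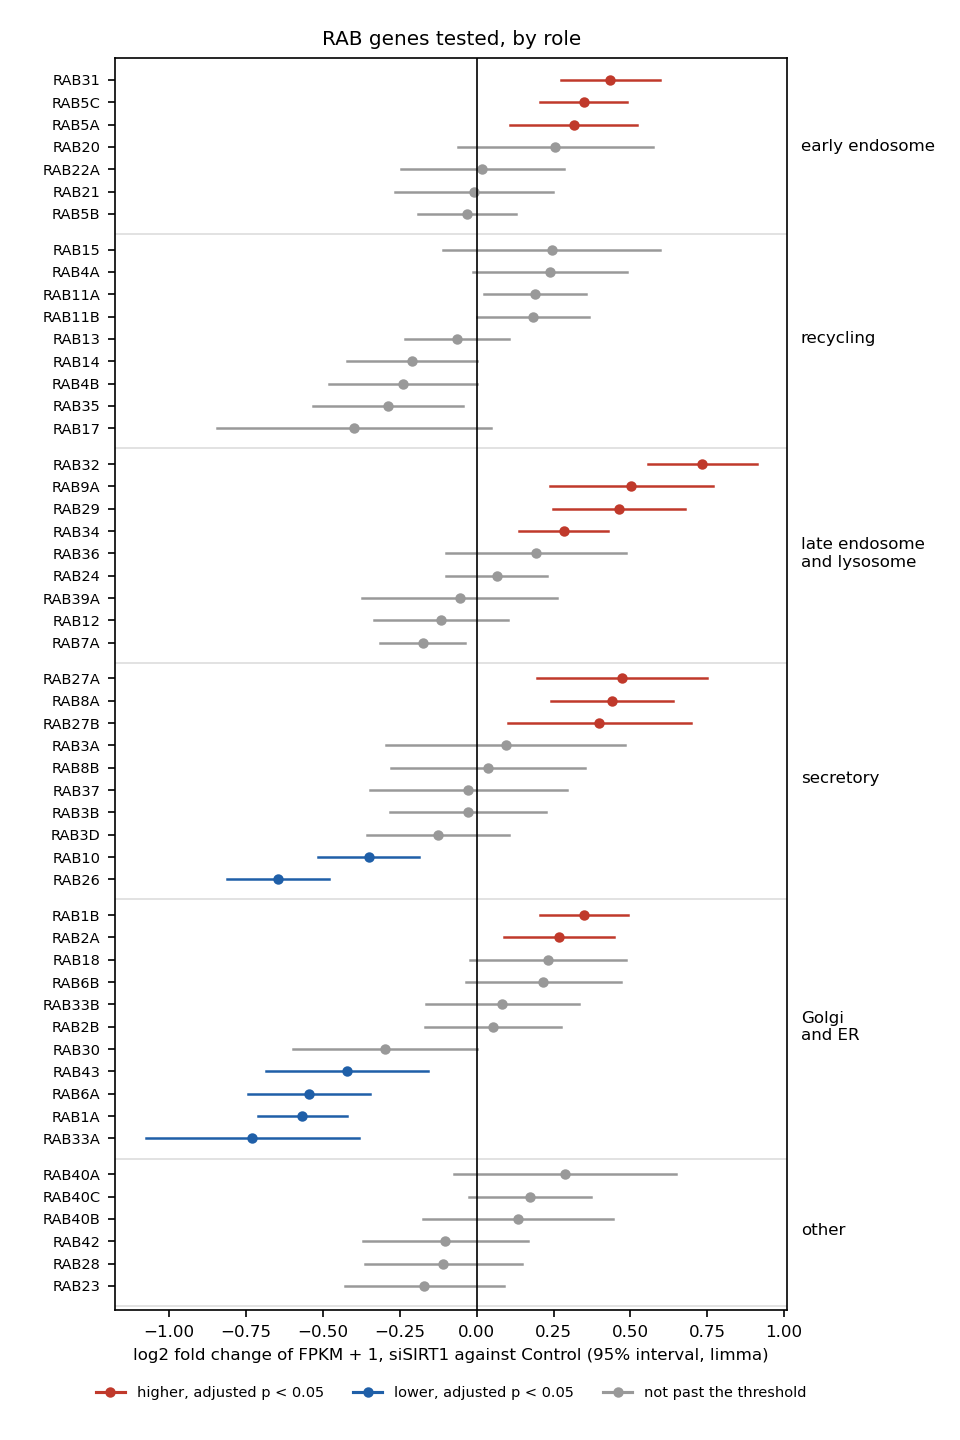
Log2 fold change of FPKM + 1 in siSIRT1 against Control for the 52 RAB genes tested, one row per gene and grouped by role. Points are limma estimates, lines are 95% intervals, and color marks the direction of the 18 genes past an adjusted p of 0.05. In the main test the early and late endosome groups held higher calls only and the recycling group held none. Of the 6 lower calls, 4 were in the Golgi and ER group. With median-of-ratios scaling the late endosome group held 1 lower call and the recycling group 3. Shares called were 42.9% for early endosome, 0% for recycling, 44.4% for late endosome, 50% for secretory and 54.5% for Golgi and ER. Over all genes, 37.1% were called, 24% higher and 13.1% lower. Each gene was placed in a single role, although some, such as RAB31, act at more than a single site, and the counts depend on that choice. Each role held few tested genes, and the split by role was not tested.

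The Golgi and ER group held 14 members, of which 11 were tested, 2 were higher and 4 were lower. RAB1A and RAB1B, closely related proteins that drive transport from the endoplasmic reticulum to the Golgi, moved in opposite directions. RAB1A stood at 41.3 and 41.8 FPKM in Control, against 28.0 and 27.4 FPKM after siSIRT1. Its mean fell by 33.3%, from 41.5 ± 0.31 to 27.7 ± 0.37 FPKM (SD, n = 2). On the log2 scale that was a change of -0.57 (SE 0.06, limma adjusted p = 0.000300). RAB1B, the most abundant RAB transcript per length in Control, stood at 162 and 159 FPKM in Control, against 214 and 196 FPKM after siSIRT1. Its mean rose from 161 ± 2.38 to 205 ± 12.2 FPKM (SD, n = 2). On the log2 scale that was a change of 0.35 (SE 0.06, limma adjusted p = 0.00306). Neither gene's groups overlapped, and the siSIRT1 libraries lay on opposite sides of Control for the pair. The RAB1B call was lost without Control library 2 (limma adjusted p = 0.0541), while that of RAB1A was kept under every alternative. RAB1A lies on the minus strand of chromosome 2 (GRCh37, chr2:65297830-65357465) and RAB1B on the plus strand of chromosome 11 (GRCh37, chr11:66036061-66044963).

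RAB6A, which directs retrograde traffic from the Golgi and also marks vesicles leaving it, stood at 36.99 and 39.0 FPKM in Control, against 23.7 and 27.9 FPKM after siSIRT1. Its log2 fold change was -0.55 (SE 0.09, limma adjusted p = 0.00167). Both siSIRT1 libraries were below both Control libraries, and the call was kept under every alternative. Its paralog RAB6B stood at 4.41 and 4.61 FPKM in Control, against 5.58 and 5.23 FPKM after siSIRT1, and did not pass the test (log2 fold change 0.22, 95% interval -0.04 to 0.47, limma adjusted p = 0.159). RAB33A, a Golgi RAB with a role in vesicle traffic, stood at 2.02 and 2.73 FPKM in Control, against 1.09 and 0.96 FPKM after siSIRT1. The log2 fold change came to -0.73 (SE 0.15, limma adjusted p = 0.00603), from an estimated 7.49 to 21.6 reads per library, and the call was lost without Control library 2 (limma adjusted p = 0.0559). RAB43, which acts in retrograde Golgi transport, stood at 10.7 and 12.6 FPKM in Control, against 7.72 and 9.17 FPKM after siSIRT1. The change was -0.42 on the log2 scale (SE 0.12, limma adjusted p = 0.0206), and it was lost without Control library 2 (0.171), without siSIRT1 library 1 (0.0894) and with no filter on low values (0.0839). RAB2A, which works between the endoplasmic reticulum and Golgi, stood at 15.8 and 17.1 FPKM in Control, against 19.7 and 20.4 FPKM after siSIRT1. Its log2 fold change was 0.27 (SE 0.08, limma adjusted p = 0.0270), and it was lost without either Control library (0.231 and 0.0784) or siSIRT1 library 2 (0.0659), and under 7 other alternatives. RAB18, RAB2B, RAB30, RAB33B and RAB6B were not called. The group's summed level stood at 295 and 299 FPKM in Control, against 323 and 311 FPKM after siSIRT1. As a share of all FPKM that was 0.0733% and 0.0754% in Control, against 0.0757% and 0.0761% after siSIRT1. RAB1B alone rose by more FPKM than the group's sum did, from a mean of 161 to 205 FPKM. The group's calls numbered 2 without Control library 2.

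The makeup of some paralog pairs differed between the groups, a measure taken within a library that does not depend on how libraries were scaled to each other. RAB1A was 20.3% and 20.8% of the summed RAB1A and RAB1B level in Control and 11.6% and 12.3% in siSIRT1. The RAB1B to RAB1A ratio was 3.93 and 3.81 in Control, against 7.64 and 7.16 after siSIRT1. The summed level of the pair stood at 204 and 201 FPKM in Control, against 242 and 224 FPKM after siSIRT1. In the RAB6 pair, RAB6B made up 10.7% and 10.6% in Control, against 19.1% and 15.8% after siSIRT1, and the sum was lower, at 41.4 and 43.6 FPKM against 29.2 and 33.2 FPKM. The RAB33B to RAB33A ratio was 2.39 and 1.89 in Control, against 4.92 and 5.57 after siSIRT1. In the RAB27 and RAB11 pairs the ratios of the groups overlapped. The RAB27B to RAB27A ratio was 0.477 and 0.471 in Control, against 0.465 and 0.472 after siSIRT1. The RAB11B to RAB11A ratio differed more between libraries of a group, at 4.60 and 3.99 in Control, against 4.52 and 3.98 after siSIRT1. How fragments matching more than 1 paralog were divided is not given in the sources used here, so the pairs with similar coding sequence carry that uncertainty.

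**Figure D2:**
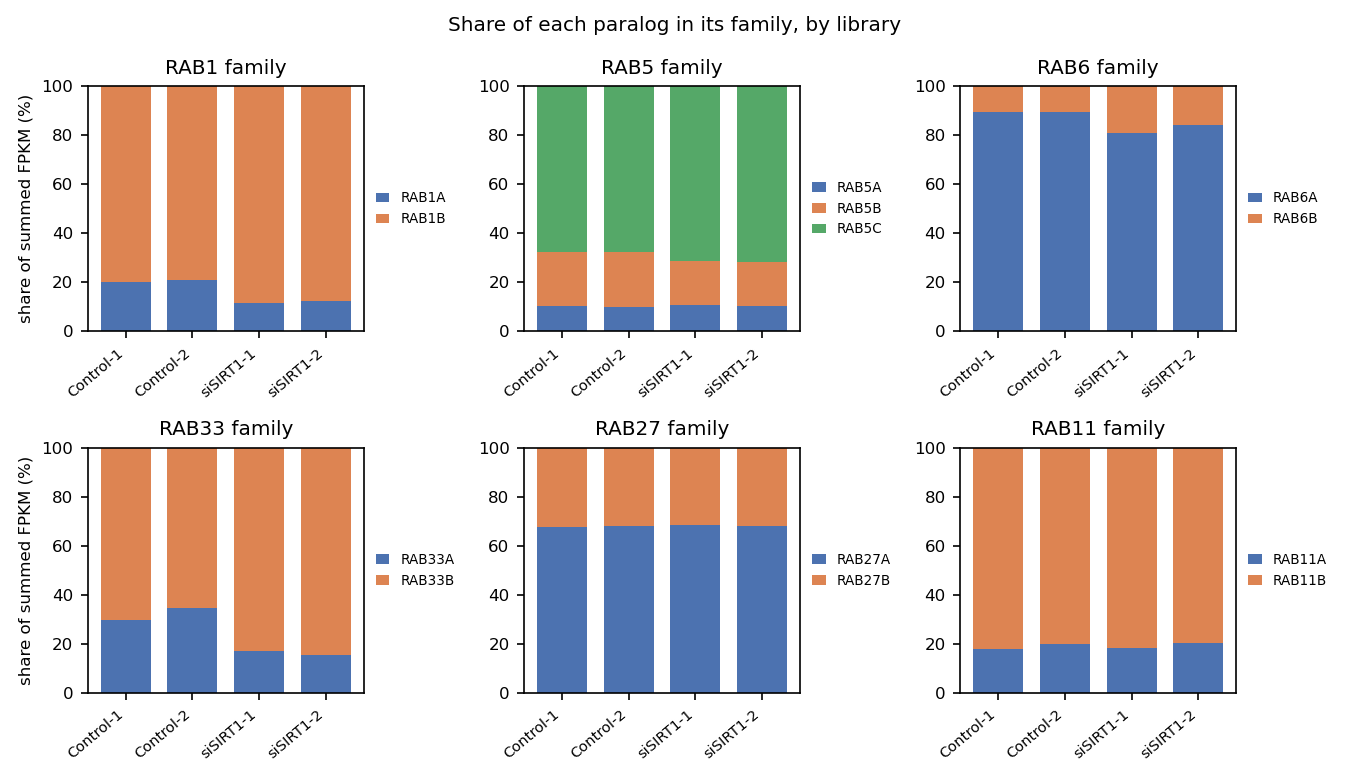
Share of each paralog in the summed FPKM of its family, in percent, for 6 families, with 1 bar per library. RAB1A falls from 20.3% and 20.8% to 11.6% and 12.3%, RAB6B rises from 10.7% and 10.6% to 19.1% and 15.8%, and the RAB27 and RAB11 bars look alike in both groups.

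The early endosome group held 7 members, all tested, and 3 were higher and none lower. RAB5C, of the RAB5 proteins that drive fusion of endocytic vesicles with early endosomes, stood at 91.9 and 93.3 FPKM in Control, against 123 and 114 FPKM after siSIRT1. Its mean rose from 92.6 ± 1.01 to 118 ± 6.58 FPKM (SD, n = 2). On the log2 scale that was a change of 0.35 (SE 0.06, limma adjusted p = 0.00286). RAB31, which acts between the trans-Golgi network and early endosomes and in receptor traffic, stood at 24.6 and 23.3 FPKM in Control, against 31.8 and 33.5 FPKM after siSIRT1. The log2 fold change came to 0.43 (SE 0.07, limma adjusted p = 0.00183). Both genes kept their call under every alternative. RAB5A stood at 14.0 and 13.6 FPKM in Control, against 18.7 and 16.2 FPKM after siSIRT1. The change was 0.32 on the log2 scale (SE 0.09, limma adjusted p = 0.0244). The RAB5A call was lost under 7 of the alternatives that used all libraries, median-of-ratios scaling (0.0907) and no filter on low values (0.0711) among them, and also without either Control library (0.0913 and 0.136), and without siSIRT1 library 1 (0.0851).

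The third RAB5 paralog did not follow the other two in the test. RAB5B stood at 29.8 and 30.7 FPKM in Control, against 30.7 and 28.6 FPKM after siSIRT1, and the groups overlapped (log2 fold change -0.03, 95% interval -0.19 to 0.13, limma adjusted p = 0.758). Its share of the RAB5 sum was 22.0% and 22.3% in Control, against 17.8% and 18.0% after siSIRT1, while that of RAB5C was 67.7% and 67.8% in Control, against 71.4% and 71.7% after siSIRT1. RAB21, RAB22A and RAB20, which act in endocytic uptake and early endosome maturation, were not called. RAB21 stood at 4.16 and 4.13 FPKM in Control, against 4.09 and 4.14 FPKM after siSIRT1. The summed level of the early endosome group stood at 171 and 171 FPKM in Control, against 215 and 203 FPKM after siSIRT1, and RAB5C supplied most of it.

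Recycling RAB genes return receptors and membrane from endosomes to the cell surface. None of the 9 tested, of 10 members, passed the limma test, and 3 passed in the lower direction with median-of-ratios scaling. RAB11B, which marks the slow recycling endosome, was the most abundant of them, at 87.3 and 80.1 FPKM in Control, against 102 and 88.7 FPKM after siSIRT1 (log2 fold change 0.18, 95% interval 0.003 to 0.36, limma adjusted p = 0.103). RAB11A stood at 19.0 and 20.1 FPKM in Control, against 22.6 and 22.3 FPKM after siSIRT1 (limma adjusted p = 0.0709). Both had groups that did not overlap, and neither difference passed the main test, while RAB11B was called higher with the replicate block. RAB35, a RAB of fast recycling, stood at 17.5 and 14.1 FPKM in Control, against 13.0 and 12.4 FPKM after siSIRT1. Its log2 fold change was -0.29 (limma adjusted p = 0.0637). It was called lower with quantile normalization, equal FPKM sums, the replicate block, and the length or GC adjustment, alone or with the block. With median-of-ratios scaling its limma adjusted p was 0.0306. RAB14 and RAB4B, which act in endosome to Golgi traffic and in fast recycling, had limma adjusted p values of 0.106 and 0.110, and of 0.0339 and 0.0441 with that scaling. Both were also called lower with the length or GC adjustment, alone or with the block. RAB14 was called lower with quantile normalization too, and RAB4B with the replicate block. RAB13, a RAB of junctional protein recycling in epithelia, overlapped between the groups at 53.7 and 55.3 FPKM in Control, against 55.5 and 48.8 FPKM after siSIRT1. With the length adjustment, alone or with the block, RAB13 was called lower (limma adjusted p = 0.0124 for length alone). RAB4A, RAB15 and RAB17 were not called under the main test either. The calls in this group numbered 0 in the main test and 0 to 2 when a library was left out.

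The late endosome and lysosome group held 12 members, of which 9 were tested, 4 were higher and none was lower. RAB32, which serves lysosome-related organelles and sits at contacts of the endoplasmic reticulum with mitochondria, had the largest rise of any RAB gene tested. It stood at 13.7 and 12.9 FPKM in Control, against 23.2 and 22.4 FPKM after siSIRT1. Its mean rose by 71.2%, from 13.3 ± 0.59 to 22.8 ± 0.54 FPKM (SD, n = 2). On the log2 scale that was a change of 0.73 (SE 0.08, limma adjusted p = 0.000236). The siSIRT1 libraries were well above Control, and the call was kept under every alternative. RAB32 lies on the plus strand of chromosome 6 (GRCh37, chr6:146864969-146876089).

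RAB29, a relative of RAB32 that recruits the kinase LRRK2 to membranes, stood at 7.48 and 8.16 FPKM in Control, against 11.3 and 11.02 FPKM after siSIRT1. Its log2 fold change was 0.46 (SE 0.09, limma adjusted p = 0.00555). RAB9A, which returns mannose 6-phosphate receptors from late endosomes to the trans-Golgi network, stood at 4.33 and 4.92 FPKM in Control, against 7.35 and 6.59 FPKM after siSIRT1, with a log2 fold change of 0.50 (SE 0.12, limma adjusted p = 0.00956). The calls of RAB29 and RAB9A were lost without Control library 1 (0.0584 and 0.0837). Summed with RAB38, which stayed under 1 FPKM, RAB29 and RAB32 went from 21.5 and 21.2 FPKM in Control to 34.6 and 33.8 FPKM in siSIRT1. RAB34, which acts in lysosome positioning and cilium formation, stood at 57.9 and 53.9 FPKM in Control, against 69.4 and 67.1 FPKM after siSIRT1. The log2 fold change came to 0.28 (SE 0.06, limma adjusted p = 0.00860). The RAB34 call was lost with median-of-ratios scaling (0.0647), with the transcript length adjustment (0.0547) and without Control library 2 (0.136).

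RAB7A, the principal RAB of late endosome maturation and fusion with lysosomes, was the most abundant member of the group and did not pass the limma test. It stood at 107 and 99.8 FPKM in Control, against 92.2 and 90.7 FPKM after siSIRT1 (log2 fold change -0.18, 95% interval -0.32 to -0.04, limma adjusted p = 0.0517). The groups did not overlap, and RAB7A was called lower with median-of-ratios scaling (limma adjusted p = 0.0199). It was also called lower with quantile normalization, equal FPKM sums, the replicate block, and the length or GC adjustment, alone or with the block. RAB12, RAB24, RAB36 and RAB39A were not called. Summed levels of the group were 234 and 221 FPKM in Control, against 248 and 240 FPKM after siSIRT1. As a share of all FPKM the groups overlapped, at 0.0583% and 0.0557% in Control, against 0.0581% and 0.0588% after siSIRT1. Without Control library 1 the calls in the group numbered 2.

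The secretory group held 12 members, of which 10 were tested, 3 were higher and 2 were lower. RAB26, which associates with secretory granules in exocrine cells, stood at 60.1 and 58.2 FPKM in Control, against 39.8 and 35.2 FPKM after siSIRT1. Its mean fell by 36.6%, from 59.1 ± 1.29 to 37.5 ± 3.19 FPKM (SD, n = 2). On the log2 scale that was a change of -0.65 (SE 0.07, limma adjusted p = 0.000316). RAB26 was the most abundant secretory member in Control, and its call was kept under every alternative. It lies on the plus strand of chromosome 16 (GRCh37, chr16:2190804-2204166). RAB10 and RAB8A, related RAB proteins of exocytosis toward the plasma membrane, moved in opposite directions. RAB10 stood at 28.4 and 29.0 FPKM in Control, against 21.4 and 23.2 FPKM after siSIRT1, with a log2 fold change of -0.35 (SE 0.07, limma adjusted p = 0.00581). RAB8A stood at 20.9 and 22.8 FPKM in Control, against 32.1 and 27.9 FPKM after siSIRT1, with a log2 fold change of 0.44 (SE 0.09, limma adjusted p = 0.00466). RAB8A kept its call under every alternative, whereas that of RAB10 was lost without Control library 2 (0.0574). RAB8B stood at 3.40 and 3.03 FPKM in Control, against 2.94 and 3.74 FPKM after siSIRT1, and the groups overlapped.

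RAB27A and RAB27B, which dock secretory granules and exosome-bearing endosomes at the plasma membrane, were both called higher. RAB27A stood at 4.99 and 6.28 FPKM in Control, against 8.22 and 8.12 FPKM after siSIRT1 (log2 fold change 0.47, SE 0.12, limma adjusted p = 0.0151). RAB27B stood at 2.38 and 2.96 FPKM in Control, against 3.82 and 3.83 FPKM after siSIRT1 (log2 fold change 0.40, SE 0.13, limma adjusted p = 0.0416). Both siSIRT1 libraries were above both Control libraries for each gene. The RAB27A call was lost without Control library 1 (0.148), without siSIRT1 library 1 (0.0555) and with no filter on low values (0.0659). The RAB27B call was lost in each fit without 1 library, with adjusted p values of 0.0594 to 0.290, and under 5 of the alternatives that used all libraries, no filter (0.0941), median-of-ratios scaling, equal FPKM sums (0.0858) and the GC adjustment among them. RAB3A, RAB3B and RAB3D, which regulate granule exocytosis, were not called, nor was RAB37. Calls in the group numbered 3 without either Control library or without siSIRT1 library 1. The group's summed level stood at 140 and 144 FPKM in Control, against 127 and 123 FPKM after siSIRT1. RAB26 alone fell by more FPKM than that sum did, from a mean of 59.1 to 37.5 FPKM.

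**Figure D3:**
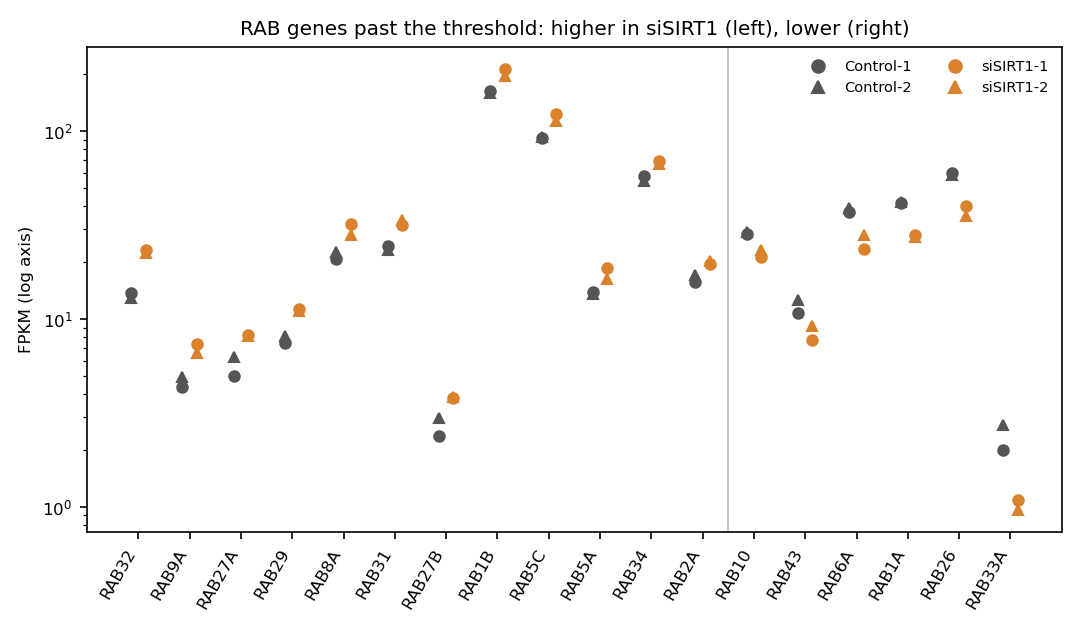
FPKM of each of the 18 called RAB genes in the 2 Control and 2 siSIRT1 libraries, on a log axis, with 1 point per library, Control in gray and siSIRT1 in orange. Genes called higher stand left of the line and genes called lower right of it, and the groups do not overlap in any of the 18, from RAB33A at 0.96 to 2.73 FPKM up to RAB1B at 159 to 214 FPKM.

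The remaining 6 tested members, RAB23, RAB28, RAB40A, RAB40B, RAB40C and RAB42, held no call. RAB40C, which joins a ubiquitin ligase through its SOCS box, was the most abundant of them, at 17.9 and 17.4 FPKM in Control, against 21.5 and 18.7 FPKM after siSIRT1 (log2 fold change 0.17, 95% interval -0.02 to 0.37, limma adjusted p = 0.149). A further 9 members fell under the filter, namely RAB19, RAB25, RAB38, RAB39B, RAB3C, RAB41, RAB44, RAB7B and RAB9B. Their values ran from 0 to 1.38 FPKM, and RAB19, RAB25, RAB3C and RAB44 were listed at 0 in at least 1 library. Fitted without a filter, none of the 9 passed the threshold. RAB39B had a mean just under the filter, at 0.995 FPKM, and RAB37 a mean just above it, at 1.06 FPKM.

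Summed over all 61 genes, the family's level stood at 1100 and 1094 FPKM in Control, against 1189 and 1131 FPKM after siSIRT1. The ratio of the means was 1.06 and became 0.995 with median-of-ratios scaling. As a share of all FPKM it was 0.273% and 0.276% in Control, against 0.279% and 0.277% after siSIRT1. Both siSIRT1 shares lay above both Control shares, and all 4 libraries fell between 0.273% and 0.279%.

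**Figure D4:**
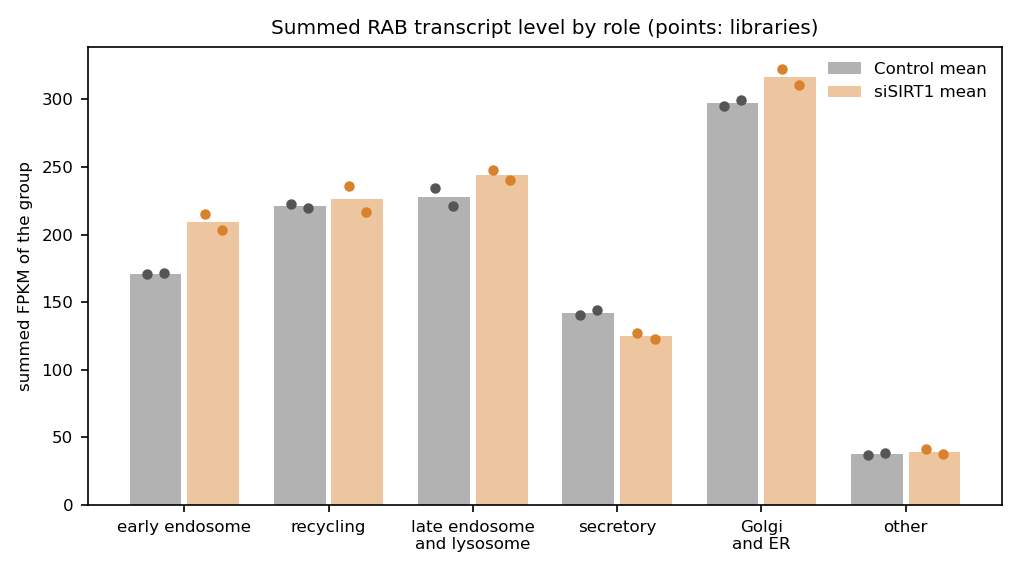
Summed FPKM of the RAB genes of each role, with bars at the group means from 0 and 1 point per library. Sums are not scaled to total FPKM, whose ratio of siSIRT1 to Control means was 1.04. As a share of all FPKM the late endosome groups overlap. RAB26 falls by more FPKM than the secretory sum does, and RAB1B rises by more than the Golgi and ER sum. The early endosome sum goes from 171 and 171 FPKM in Control to 215 and 203 FPKM in siSIRT1, the secretory sum from 140 and 144 to 127 and 123 FPKM, and the recycling sums of the groups overlap at 217 to 236 FPKM.

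The proteins that prenylate, escort and switch RAB proteins were described from 4 lists. In the prenylation and membrane cycling list, 3 of 8 genes tested were higher and 1 was lower. GDI2, a GDP dissociation inhibitor, stood at 52.8 and 52.4 FPKM in Control, against 68.2 and 69.6 FPKM after siSIRT1 (log2 fold change 0.38, limma adjusted p = 0.00133). RABAC1, a prenylated RAB acceptor of the Golgi, stood at 139 and 133 FPKM in Control, against 104 and 99.9 FPKM after siSIRT1 (log2 fold change -0.41, limma adjusted p = 0.000909). RABIF, a chaperone for nucleotide-free RAB proteins, stood at 4.18 and 4.32 FPKM in Control, against 5.81 and 6.32 FPKM after siSIRT1 (log2 fold change 0.43, limma adjusted p = 0.0161), and was lost without Control library 1 (0.103) or 2 (0.0758). The GDI2 and RABAC1 libraries were tight within each group.

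Among exchange factors, 33 of 36 were tested, 7 were higher and 3 lower. RIN1, an exchange factor for RAB5, stood at 17.8 and 18.0 FPKM in Control, against 11.1 and 11.3 FPKM after siSIRT1 (log2 fold change -0.64, limma adjusted p = 0.000501). ANKRD27, an exchange factor for RAB21 that also binds RAB32 and RAB38, stood at 14.5 and 14.4 FPKM in Control, against 20.2 and 20.8 FPKM after siSIRT1 (log2 fold change 0.47, limma adjusted p = 0.00163). DENND3, an exchange factor for RAB12, stood at 9.09 and 8.95 FPKM in Control, against 12.3 and 13.3 FPKM after siSIRT1 (log2 fold change 0.46, limma adjusted p = 0.00450). RIN1 was called lower, whereas RAB5A and RAB5C were called higher.

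GTPase-activating proteins, mostly of the TBC domain family, had 34 of 35 members tested, of which 6 were higher and 2 lower. TBC1D8 stood at 96.1 and 95 FPKM in Control, against 55.2 and 55.3 FPKM after siSIRT1 (log2 fold change -0.78, limma adjusted p = 3.8e-05). TBC1D13, which acts on RAB35, stood at 7.01 and 7.21 FPKM in Control, against 13.4 and 12.5 FPKM after siSIRT1 (log2 fold change 0.78, limma adjusted p = 0.000394). TBC1D12 stood at 3.51 and 3.37 FPKM in Control, against 6.36 and 6.97 FPKM after siSIRT1 (log2 fold change 0.79, limma adjusted p = 0.000997). The libraries of each group lay close together for all 3 genes.

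Effectors had 35 of 45 members tested, of which 6 were higher and 4 lower. OPTN, an autophagy receptor that binds RAB8, stood at 11.1 and 11.6 FPKM in Control, against 17.9 and 16.5 FPKM after siSIRT1 (log2 fold change 0.56, limma adjusted p = 0.00133). EEA1, the tether recruited by RAB5 to early endosomes, stood at 1.48 and 1.68 FPKM in Control, against 2.44 and 4.17 FPKM after siSIRT1 (log2 fold change 0.71, limma adjusted p = 0.0191), and was lost without Control library 1 (0.0617), without siSIRT1 library 2 (0.0691) and with no filter on low values (0.0997). BICD1, a dynein adaptor that binds RAB6, stood at 8.60 and 8.23 FPKM in Control, against 5.32 and 6.38 FPKM after siSIRT1 (log2 fold change -0.46, limma adjusted p = 0.0127), and was lost without Control library 1 (0.0848) or 2 (0.0519) and with no filter on low values (0.0532). The shares called were 50% of the cycling genes, 30.3% of the exchange factors, 23.5% of the GTPase-activating proteins and 28.6% of the effectors, beside 37.1% of all genes. With median-of-ratios scaling, 2 cycling genes were higher and 3 lower, as were 6 and 4 exchange factors, 5 and 3 GTPase-activating proteins, and 4 and 7 effectors. Without Control library 1 or 2, the calls numbered 2 and 2 for cycling genes, 4 and 7 for exchange factors, 6 and 5 for GTPase-activating proteins and 3 and 3 for effectors. Median log2 fold changes of the lists were 0.17, 0.10, 0.04 and -0.003 in the same order.

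**Figure D5:**
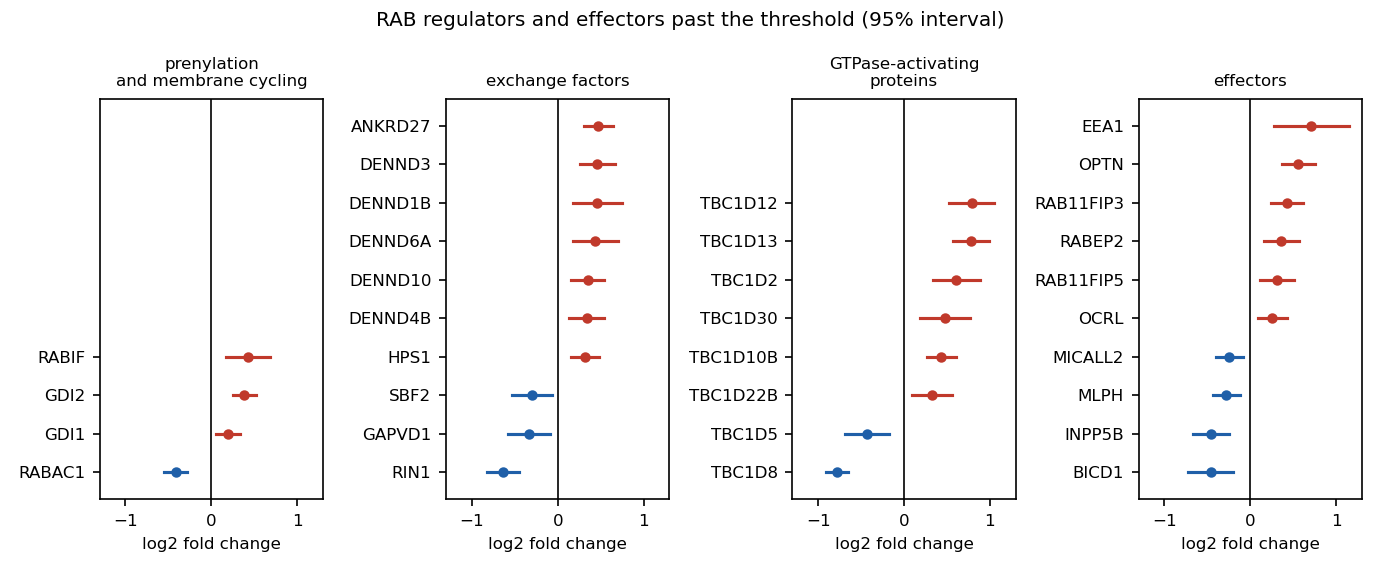
Log2 fold change of FPKM + 1 in siSIRT1 against Control for the called genes of the 4 lists of RAB regulators and effectors, with 95% limma intervals. TBC1D12, TBC1D13 and EEA1 reach 0.79, 0.78 and 0.71, and TBC1D8, RIN1 and BICD1 fall to -0.78, -0.64 and -0.46.

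Promoter windows were taken as the 250 bases before the annotated start in RefSeq (GRCh38.p14) and searched for a pair of motifs. A window was found for 48 of the 61 RAB genes. GGGCGG, the GC box, occurred on either strand in 40 of the 48 (83.3%), beside 46.2% of 27305 genes, and the E-box CACGTG, a palindrome, in 5 of 48 (10.4%), beside 7.73%. The 27305 genes outnumber the 16878 identifiers of the series and were not matched for expression, so 83.3% and 46.2% are shares of unlike sets. The GC box was in 10 of 11 windows of genes called higher and 3 of 3 of genes called lower. It was in 25 of 28 of genes not called and in 2 of 6 of genes under the filter. It was therefore common among the tested members that had a window, whether called higher, called lower or not called. Only 3 of the 6 genes called lower had a window, and none was found for RAB1A, RAB26 and RAB33A. CACGTG was in the windows of RAB31 and RAB5A among the genes called higher, in none of the 3 called lower, and in RAB21, RAB24 and RAB4A among those not called. Windows are shown for RAB32 (chr6:146543583-146543832, plus strand), which had the largest rise, for RAB1B (chr11:66268389-66268638, plus strand), which rose as its paralog fell, and for RAB6A (second annotated start, chr11:73760096-73760345, minus strand), which fell. Capitals mark GGGCGG or its reverse complement.
RAB32: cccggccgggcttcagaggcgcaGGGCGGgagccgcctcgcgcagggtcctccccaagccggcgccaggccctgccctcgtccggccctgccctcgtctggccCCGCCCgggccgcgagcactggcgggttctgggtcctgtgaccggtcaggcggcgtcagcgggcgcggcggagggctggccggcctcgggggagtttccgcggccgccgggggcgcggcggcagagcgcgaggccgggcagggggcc
RAB1B: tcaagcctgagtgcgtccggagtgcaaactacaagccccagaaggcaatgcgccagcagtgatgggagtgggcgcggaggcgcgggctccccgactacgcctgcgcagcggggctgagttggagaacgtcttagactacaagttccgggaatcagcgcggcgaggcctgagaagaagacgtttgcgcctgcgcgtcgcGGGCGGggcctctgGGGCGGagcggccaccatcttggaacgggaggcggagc
RAB6A: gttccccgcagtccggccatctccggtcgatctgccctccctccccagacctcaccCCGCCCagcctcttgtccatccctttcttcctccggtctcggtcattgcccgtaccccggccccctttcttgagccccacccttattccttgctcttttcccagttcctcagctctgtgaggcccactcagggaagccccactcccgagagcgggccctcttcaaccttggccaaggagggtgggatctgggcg
RAB32 and RAB1B held 2 matches each, and RAB6A held 1 in this window and none at its other annotated start. All windows shown thus held a match, whereas the window of RAB29, a gene called higher, held none and is not shown. A match is a description of the letters only, and the same motif stood before genes that rose and a gene that fell.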

How the data were processed

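RNA-seq was deposited for 4 libraries of PANC-1 cells, 2 Control and 2 siSIRT1, and grouped by the titles in the labels. The authors deposited FPKM per gene, 1 table per library. The submitters' processing notes name HISAT, Bowtie2 and RSEM with no role or version, and the genome build of the RNA-seq is not given in the sources used here. The RAB members, their roles and the 4 regulator lists were chosen with earlier results of these data known.

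FPKM values were tested as log2(FPKM + 1) with limma 3.58.1 (R 4.3.3, lmFit and eBayes with trend, two-sided), over the 12191 genes that averaged 1 FPKM or more, with Benjamini-Hochberg adjustment over all of them and a threshold of 0.05. Fold changes on this scale understate those of low genes. The code was checked on simulated data. No separate cultures are stated, so p-values measure only the spread between these libraries, which may be technical. In bulk RNA, fewer cells of a type and less RNA per cell cannot be told apart. Alternatives were a pseudocount of 0.1, no filter, median-of-ratios scaling, quantile normalization, equal FPKM sums, no trend, a replicate block and each library left out, and, chosen after seeing the data, adjustment for transcript length or GC content (lowess span 0.3), each also with the block.

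Named were all called RAB genes, SIRT1, the member with the highest Control mean in each role, and up to 3 called genes with the largest change and no overlap in each list. Other genes in the text were chosen after their values were seen. Gene positions are from GENCODE release 44 on GRCh37, which is another build than that of the promoter windows. RAB4B and RAB43 share exons with annotated readthrough loci. Of the 16878 identifiers, 16846 matched RefSeq. Depth is an estimate, since FPKM tables hold no read counts.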

Additional observations from a re-analysis of the deposited data

How the results depend on the processing

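All 18 called RAB genes kept their sign under every alternative, and 12 kept their call under every alternative that used all 4 libraries. Of these, 7 also kept it with each library left out, namely RAB1A, RAB6A, RAB31, RAB5C, RAB32, RAB26 and RAB8A. RAB genes called lower went from 6 to 10 with median-of-ratios scaling, 11 with either the length or the GC adjustment, 12 with length and the replicate block, and 10 with GC and the block. Recycling calls went from 0 to 3 with median-of-ratios scaling, 2 with quantile normalization, 1 with equal FPKM sums, 4 with the length adjustment and 3 with the GC adjustment. The RAB median log2 fold change of 0.06 became -0.024 with median-of-ratios scaling, -0.019 with the GC adjustment, 0.0038 with quantile normalization, 0.00040 with equal sums and 0.024 with the length adjustment. The summed RAB ratio of 1.06 became 0.995 with median-of-ratios scaling and 1.01 with quantile normalization or equal sums. Without the filter, secretory calls fell from 5 to 3, exchange factor calls from 10 to 6 and effector calls from 10 to 6. The cause of these shifts was not tested.

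Library numbers 1 and 2 are shared between groups, but nothing says that they mark a pair. The deviations of the 2 numbered pairs correlated at 0.123. With the replicate block, 13 RAB genes were higher and 9 lower, all 18 main calls among them, with RAB7A, RAB35, RAB4B and RAB11B added, and 5393 genes were called in all. The block also gave 16 exchange factor calls and 3 recycling calls, 5 with the length adjustment and 3 with the GC adjustment. Alone, the block ended no RAB call.

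Leaving out each library in turn gave 12 to 18 RAB calls, 6 to 12 higher and 5 to 7 lower, with a median of 0.03 to 0.08 and a summed ratio of 1.03 to 1.08. Fewest RAB calls were left without Control library 2. The ranges were 2 to 3 for early endosome, 0 to 2 for recycling, 2 to 4 for late endosome, 3 to 4 for secretory, 2 to 5 for Golgi and ER, and 0 to 1 for the other RAB genes. They were 2 to 5 for cycling genes, 4 to 13 for exchange factors, 5 to 10 for GTPase-activating proteins, 3 to 11 for effectors and 2691 to 4608 over all genes. The SIRT1 log2 fold change ran from -2.02 to -1.90. With 1 library left in a group, that library is assumed to vary like the others.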

Other observations

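RAB2 and RAB4 paralogs, which were not set out above as pairs, differed in makeup. RAB2B was 34.3% and 34.5% of the RAB2A and RAB2B sum in Control and 31.8% and 30.1% in siSIRT1. RAB4B was 68.3% and 76.3% of the RAB4A and RAB4B sum in Control and 66.3% and 63.3% in siSIRT1, and the Control libraries differed more from each other than Control 1 did from siSIRT1 1.

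Across genes, which are not independent replicates, the Spearman correlation of the log2 fold change with transcript length was 0.005 over the 52 RAB genes tested, whose transcripts ran from 945 to 15558 bases, and -0.19 over 11971 genes. With GC content it was -0.08 over the RAB genes and 0.02 over all genes. All points share the same 4 libraries.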
